A study of Mus musculus with 24 samples.

Results

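The mitochondrial carriers are the SLC25 family of transport proteins, to which the uncoupling proteins belong. Here the family is described by every gene on the array named Slc25a followed by a number, leaving out Slc25a20, together with Ucp1, Ucp2 and Ucp3. This gave 49 of the 37074 gene names on the array, and 44 of them were bright enough to be tested among 21331 genes. The rule uses gene names alone and no measured value.

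The levels come from the livers of male C57Bl/6J mice with free access to a standard rodent diet, 6 mice in each of 4 groups. LKO mice lacked PPARα in hepatocytes, by the series title, and LWT mice had it. Mice of either genotype received 3 mg/kg of CL316243, which activates beta3 adrenergic receptors, or only the vehicle, 0.5% carboxymethyl cellulose. Both were given by gavage at Zeitgeber time 10 h, counted from lights on, and every liver was taken at 16 h. The labels name neither the part of Ppara that was removed nor the driver that restricted the loss to hepatocytes, and they give no age. Both genotypes, with and without the agonist, thus allow the effect of the agonist to be compared between livers with and without hepatocyte PPARα.

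SLC25 carriers sit in the inner mitochondrial membrane, with a few exceptions, and exchange metabolites between cytosol and matrix: citrate and dicarboxylates, amino acids, phosphate, ADP and ATP, and cofactors. In the liver they serve gluconeogenesis, the urea cycle, the malate-aspartate shuttle and lipid synthesis, each of which runs partly in the matrix and partly in the cytosol. The uncoupling proteins are carriers of the same fold, of which Ucp1 lets protons back into the matrix of brown fat mitochondria as heat is made. PPARα is a fatty acid receptor that binds DNA at a direct repeat of AGGTCA with a single base between, and beta3 receptors, best known from fat cells, signal through cAMP, whose response element in DNA is TGACGTCA.

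Promoters of 4 members are printed. Slc25a25 and Slc25a36 were taken by motif, as the only members with the full cAMP response element TGACGTCA in the RefSeq promoter table (build GRCm38.p6). Slc25a34 and Slc25a42 were taken because they showed the largest genotype differences in the response to the agonist. Each sequence is the 250 bases before the annotated start, 5′ to 3′ on the gene's strand, which is the minus strand in all 4. Capitals mark TGACGTCA in the first pair and CCAAT, or its reverse complement ATTGG, in the second pair. The positions are chr2:32424067-32424316 for Slc25a25, chr9:97111042-97111291 for Slc25a36, chr4:141623835-141624084 for Slc25a34 and chr8:70212282-70212531 for Slc25a42.
Slc25a25: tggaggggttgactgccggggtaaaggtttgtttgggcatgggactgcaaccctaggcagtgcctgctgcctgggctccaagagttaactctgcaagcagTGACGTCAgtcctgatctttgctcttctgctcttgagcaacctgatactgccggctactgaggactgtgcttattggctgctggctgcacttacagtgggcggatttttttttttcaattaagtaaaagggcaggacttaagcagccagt
Slc25a36: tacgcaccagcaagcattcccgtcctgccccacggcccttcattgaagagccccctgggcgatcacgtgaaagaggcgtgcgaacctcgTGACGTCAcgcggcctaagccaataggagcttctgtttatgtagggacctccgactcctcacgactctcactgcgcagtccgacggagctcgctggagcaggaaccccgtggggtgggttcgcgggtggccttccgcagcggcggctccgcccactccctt
Slc25a34: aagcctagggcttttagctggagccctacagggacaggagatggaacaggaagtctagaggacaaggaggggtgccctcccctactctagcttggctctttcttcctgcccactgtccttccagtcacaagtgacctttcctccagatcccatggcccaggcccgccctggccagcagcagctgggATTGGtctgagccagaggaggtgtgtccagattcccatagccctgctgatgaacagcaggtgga
Slc25a42: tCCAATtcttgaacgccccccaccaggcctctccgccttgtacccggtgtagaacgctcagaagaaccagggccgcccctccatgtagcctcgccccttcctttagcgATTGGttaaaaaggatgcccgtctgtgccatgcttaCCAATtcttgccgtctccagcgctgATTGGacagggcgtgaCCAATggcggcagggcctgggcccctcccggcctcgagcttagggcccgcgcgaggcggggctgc

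The table held 48 promoters of 300 bases for 38 of the 49 members, and motifs were searched on both strands over all 300 bases. The full element TGACGTCA was found in 1.79% of all 32851 promoters. In Slc25a25, which has 3 promoters in the table, it begins 150 bases before the start of one, and in Slc25a36 it begins 161 bases before. The shorter TGACG, which the full element contains, occurred in 16 of the 48 member promoters, those of Ucp2 and Ucp3 among them, and in 20.8% of all. CCAAT, a common promoter element, occurred in 22 of 48 and in 37.4% of all, with 5 matches in the 250 bases of Slc25a42 and 1 in Slc25a34. Neither AGGTCANAGGTCA nor the looser AGGNCANAGGNCA, which contains it, was found in a member promoter, while 0.0396% and 0.381% of all promoters held them. A match describes letters in this window and is not a measured site.

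Signal was read on 24 single-colour (Cy3) Agilent arrays, 1 per mouse. Levels below are log2 of the processed intensity minus log2 of the array's 75th percentile. Since probes differ in brightness, levels are compared between groups and never between genes. The 75th percentile ranged from 397.4 to 577.7 and between 26985 and 34202 probes per array lay well above background, with no saturated spot. Ppara, the targeted gene, was read by 2 probes that may lie outside the removed part; LKO minus LWT was -0.68 and -0.92 under vehicle and -1.91 and -2.09 under CL316243 (exact two-sided permutation p = 0.00217 for each value alone, the smallest possible with 924 splits). In the limma fit over all genes the first of these probes was not called under vehicle (adjusted p = 0.158). It was called under CL316243 (adjusted p = 3.60e-07). With the agonist this probe changed by 0.55 in LWT and -0.69 in LKO (interaction adjusted p = 0.012). In the limma fit of all probes the second was called under vehicle (adjusted p = 0.0188) and under CL316243 (adjusted p = 5.82e-08). Its interaction in that fit was -1.17 (adjusted p = 0.0138). LKO CL316243 replicate 3 stood apart, with a median distance of 0.32 from the mean of the other mice of its group, against 0.113 to 0.225 for the other 23 arrays in their own groups. For the members named by the rule given under processing, calls that changed without it are given with both values. Without it 27 members were called for the agonist in LWT, 25 in LKO and 7 for the interaction, against 26, 24 and 6 with all mice. Members outside the rule that gained a call in this way are not named. The arrays filled 3 slides with 2 mice of every group on each, and 60 of 62 called results for the members described below kept their direction within all 3 slides. A whole liver was measured, so fewer cells of a type and less RNA per cell cannot be told apart.

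CL316243 changed most of the carriers measured in LWT mice. Of 44 members, 26 passed the test (limma, adjusted p under 0.05 over all genes), which is 59.1%, beside 38.3% of all genes tested. Of these, 14 were higher and 12 lower, beside 18.9% and 19.4% of all genes. In LKO mice 24 members passed, which is 54.5% beside 40.3% of all genes, with 10 higher and 14 lower beside 20.9% and 19.4%. Up and down nearly balanced: the median log2 change of the members was 0.05 in LWT and 0.00 in LKO, against 0.01 and 0.03 for all genes. The 6 treated mice did not overlap the 6 vehicle mice for 18 members in LWT (40.9%, against 20.4% of all genes) and for 16 in LKO (36.4%, against 20.8%). Slc25a30, Slc25a34 and Slc25a47 rose most in LWT, and Slc25a48 and Slc25a35 fell most in both genotypes.

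**Figure D1:**
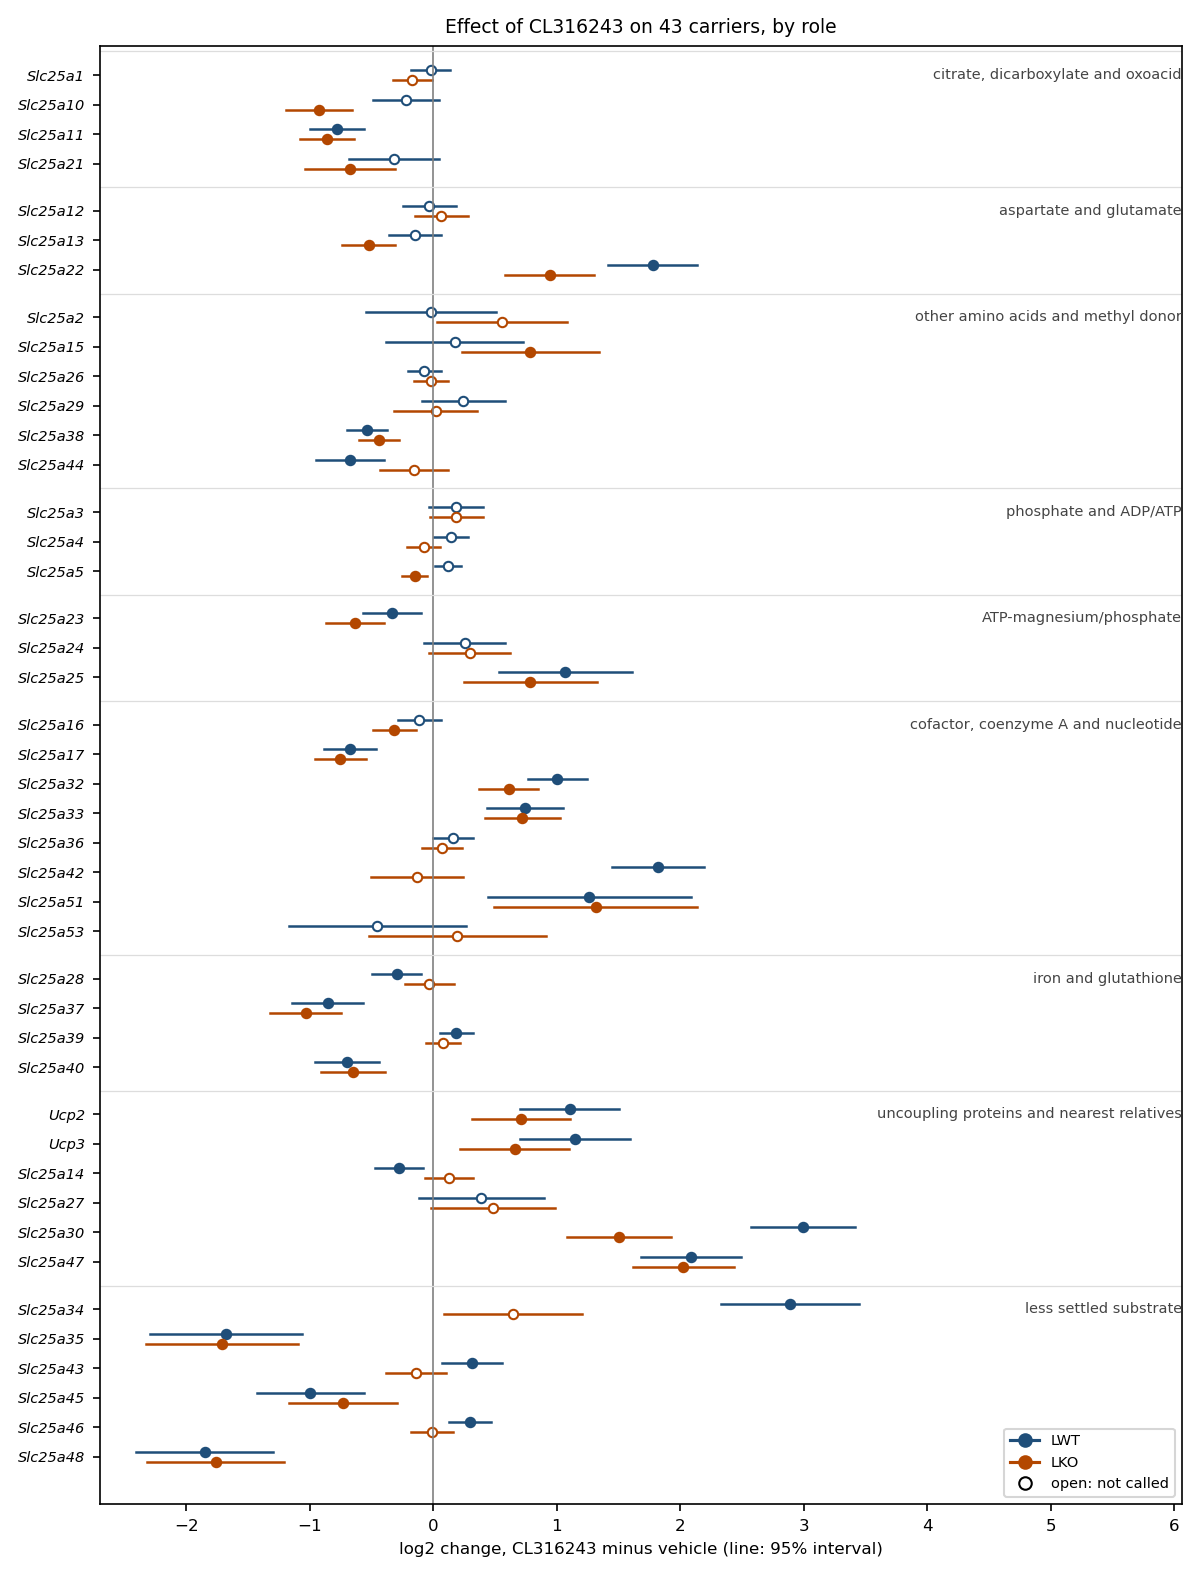
Log2 change with CL316243 against vehicle (x axis) for 43 of the 44 members tested, grouped by role (y axis), in LWT (blue) and LKO (orange) livers; points are limma estimates, lines their 95% intervals, and open points did not pass the test. Slc25a30 and Slc25a47 lie far to the right and Slc25a35 and Slc25a48 far to the left, while the LWT and LKO points lie apart for Slc25a34 (2.89 and 0.65) and Slc25a42 (1.82 and -0.14).

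In all, 18 members passed in both genotypes (40.9%, beside 25.3% of all genes), 9 higher in both and 9 lower in both. Opposite directions were called for 0 members, beside 0.609% of all genes. Another 8 passed in LWT and not in LKO (18.2%, beside 13.0%), 6 in LKO and not in LWT (13.6%, beside 15.0%), and 12 in neither (27.3%, beside 46.7%). Such a split does not show that genotypes differ, which the interaction tests. That test compares the agonist's effect in LKO with its effect in LWT, and it was passed by 6 members, all with a lower effect in LKO: Slc25a34, Slc25a42, Slc25a30, Slc25a22, Slc25a10 and Slc25a5. They are 13.6% of the members, beside 5.41% of all genes, or 3.24% with a lower effect in LKO. No member was called with a higher effect in LKO, beside 2.17% of all genes. With array weights 2 were, beside 7 with a lower effect. With the mean of all kept probes 8 members passed, all with a lower effect, beside 1231 of 21331 genes in either direction. Slc25a46 and Slc25a39 were not called by their brightest probes, while their second probes were (-0.45 and -0.56, adjusted p = 0.034 and 0.028 in the fit of all probes).

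The probes that stand for the members with the largest interactions lie, in build mm9, at chr4:141174747-141174806 for Slc25a34, chr8:72708298-72708357 for Slc25a42 and chr14:76161603-76161662 for Slc25a30. Slc25a34, a carrier of less settled substrate, had the largest interaction of the members. Its level had a median of -0.40 in LWT vehicle (lowest -0.94, highest 0.22) and 2.47 in LWT CL316243 (1.95 to 3.09). In LKO it was -2.83 under vehicle (-3.50 to -2.32) and -2.18 under CL316243 (-3.04 to -1.63). LKO mice thus lay below every LWT mouse under either treatment, and LWT mice treated with the agonist lay above all others. The agonist raised it by 2.89 ± 0.27 (log2, SE) in LWT, or 7.41-fold (adjusted p = 3.62e-08). In LKO the change was 0.65 (adjusted p = 0.0614), and the effects differed by -2.24 ± 0.38 (adjusted p = 0.000668). It was also the only member called between genotypes under vehicle, 5.59-fold lower in LKO (adjusted p = 3.60e-06). A second, dimmer probe, nearer the 5′ end of the transcript (base 300 against 2615), gave smaller values throughout: 0.66 in LWT, 0.27 in LKO, -0.14 between genotypes under vehicle and -0.54 under CL316243. On that probe the agonist's change was called in LWT and in LKO (adjusted p = 3.96e-05 and 0.0459 in the fit of all probes). Neither its interaction (-0.39, adjusted p = 0.133) nor its vehicle difference (adjusted p = 0.814) was called. With the mean of both probes the LWT change was 1.78, the interaction -1.32 and the vehicle difference -1.31, each still called.

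Slc25a42 carries coenzyme A into the matrix. Its level was 4.08 under vehicle (3.77 to 4.67) and 5.95 under CL316243 (5.35 to 6.22) in LWT. In LKO it was 3.90 (3.76 to 4.13) and 3.76 (3.18 to 4.53) in the same order. The treated LWT mice were above the other 18 mice, whose 3 groups overlapped. The agonist raised it 3.53-fold in LWT (log2 1.82 ± 0.18, adjusted p = 7.92e-08), while the LKO change was -0.14 (95% interval -0.51 to 0.24, adjusted p = 0.578). The interaction was -1.95 ± 0.25 (adjusted p = 2.95e-05). All 3 probes of Slc25a42 gave values below zero, from -2.38 to -1.46.

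Slc25a30, a relative of the uncoupling proteins, rose in both genotypes and less in LKO. Its level went from -1.90 (-2.29 to -0.69) to 1.26 (1.04 to 1.48) in LWT. In LKO it went from -2.45 (-2.68 to -1.97) to -0.90 (-1.23 to -0.55). Treated and vehicle mice did not overlap in either genotype, and treated LKO mice stayed below every treated LWT mouse. The rise was 7.95-fold in LWT (log2 2.99 ± 0.20, adjusted p = 2.81e-10) and 2.83-fold in LKO (95% interval 1.08 to 1.92 on the log2 scale, adjusted p = 7.42e-06), with an interaction of -1.49 ± 0.29 (adjusted p = 0.00237). A second probe that was well above background on all arrays rose by 3.20 in LWT and 1.40 in LKO, with an interaction of -1.80. The other 2 kept probes were not well above background on any LKO array and say nothing of the change there.

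Slc25a22, a glutamate carrier, was at 1.83 (1.58 to 2.23) under vehicle and 3.50 (3.37 to 4.26) under CL316243 in LWT. It was at 1.37 (1.14 to 1.60) and 2.52 (1.68 to 2.67) in LKO. Both genotypes rose without overlap, by 3.43-fold in LWT (log2 1.78 ± 0.17, adjusted p = 6.98e-08) and 1.92-fold in LKO (0.94 ± 0.17, adjusted p = 0.00019). The interaction was -0.84 ± 0.25 (adjusted p = 0.0481), and the other 2 probes of Slc25a22 gave -1.29 and -1.20, both called in the fit of all probes (adjusted p = 0.00339 and 0.00383). For the brightest probe it was no longer called when any of 16 of the 24 mice was left out, or with slide as a block (-0.91 to -0.71 over all left-out mice). Within slides 1, 2 and 3 it was -0.04, -1.002 and -1.47. The call stayed without LWT vehicle replicate 6, LWT CL316243 replicates 3, 4 and 6, LKO vehicle replicate 5 and LKO CL316243 replicates 2, 3 and 6.

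Slc25a10, which exchanges malate and succinate for phosphate, moved the other way. It was at 0.49 (0.26 to 0.61) and 0.23 (-0.25 to 0.56) in LWT, vehicle first, and at 0.56 (0.16 to 0.85) and -0.44 (-0.62 to 0.01) in LKO. Treated and vehicle mice were apart in LKO and overlapped in LWT. It fell 1.90-fold in LKO (log2 -0.93 ± 0.13, adjusted p = 1.01e-05), against -0.22 in LWT (adjusted p = 0.195), and the effects differed by -0.71 ± 0.18 (adjusted p = 0.0233, or 0.0567 with no filter on dim probes). Slc25a5, an ADP/ATP exchanger, had the smallest called interaction, -0.27 ± 0.07 (adjusted p = 0.0276), from a change of 0.12 in LWT that was not called and a fall of 0.15 in LKO (adjusted p = 0.0198). The Slc25a5 interaction was lost without LWT vehicle replicate 1 (-0.24) or LKO CL316243 replicate 5 (-0.26).

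**Figure D2:**
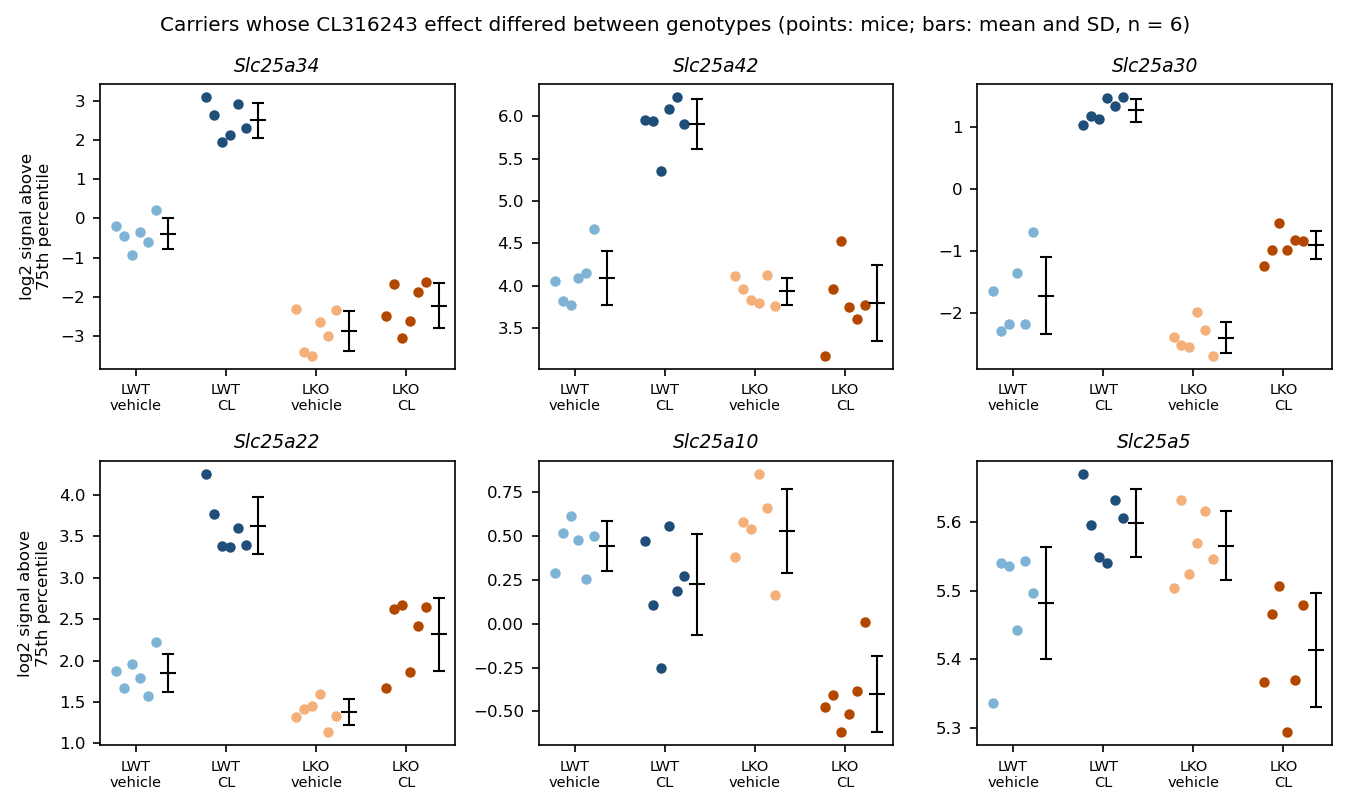
Log2 signal minus that of the array's 75th percentile (y axis, a separate scale for each gene) in every mouse of the 4 groups (x axis) for the 6 members with a called interaction; points are mice, bars the mean and SD of 6. The treated LWT mice stand alone at the top for Slc25a34 (1.95 to 3.09) and Slc25a42 (5.35 to 6.22), and for Slc25a10 the treated LKO mice (-0.62 to 0.01) lie below both vehicle groups and overlap the treated LWT mice (-0.25 to 0.56).

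Among the uncoupling proteins and their nearest relatives, 6 of 7 were tested. Of these, 4 rose and 1 fell in LWT, and 4 rose in LKO. Of all genes, 18.9% rose and 19.4% fell in LWT, and 20.9% rose and 19.4% fell in LKO. These shares also stand beside the counts of other roles and of cell markers below. No role was tested as a set. Slc25a47, a carrier enriched in liver, was at 6.02 (5.23 to 6.76) under vehicle and 8.05 (7.82 to 8.37) under CL316243 in LWT. In LKO it was at 5.77 (5.16 to 6.11) and 7.64 (7.42 to 7.95). Every treated mouse was above every vehicle mouse of either genotype. It rose 4.25-fold in LWT (log2 2.09 ± 0.20, adjusted p = 3.62e-08) and 4.07-fold in LKO (2.03 ± 0.20, adjusted p = 1.52e-07), with an interaction of -0.06 (95% interval -0.64 to 0.51, adjusted p = 0.938). Slc25a29, a carrier of basic amino acids whose probe lies 30227 bases from that of Slc25a47, changed by 0.24 in LWT and 0.02 in LKO, neither called.

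Ucp2, whose protein exchanges small carbon acids and phosphate, was at -1.24 (-1.59 to -1.04) under vehicle and -0.07 (-0.71 to 0.40) under CL316243 in LWT, and at -1.27 (-1.40 to -1.11) and -0.52 (-1.27 to 0.15) in LKO. The groups were apart in LWT and overlapped in LKO. It rose 2.15-fold in LWT (SE 0.19 on the log2 scale, adjusted p = 0.000101) and 1.63-fold in LKO (0.71 ± 0.19, adjusted p = 0.00536), an interaction of -0.39 (95% interval -0.96 to 0.17, adjusted p = 0.489). A second, dimmer Ucp2 probe rose by 1.36 in LWT (adjusted p = 0.000302 in the fit of all probes). On that probe neither the LKO change (0.60, adjusted p = 0.074) nor the interaction (-0.77, adjusted p = 0.266) was called. Under CL316243 LKO minus LWT was -0.40 (adjusted p = 0.181), and -0.54 and called without LKO CL316243 replicate 3 (adjusted p = 0.039).

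Ucp3, best known from muscle, lies next to Ucp2, with 17351 bases between their probes on chromosome 7. It was at -1.21 (-1.47 to -1.02) and -0.18 (-0.66 to 0.71) in LWT, vehicle first, and at -1.17 (-1.64 to -0.78) and -0.55 (-1.24 to 0.08) in LKO. As with Ucp2, the groups overlapped in LKO and not in LWT. It rose by 1.15 ± 0.21 in LWT (adjusted p = 0.000199) and by 0.66 ± 0.21 in LKO (adjusted p = 0.0173). The LKO call was lost without LKO CL316243 replicate 3 (0.53, adjusted p = 0.0518). Slc25a14 fell by 0.28 in LWT and was not called in LKO (0.13), and Slc25a27 was not called in any comparison. Ucp1 was well above background on 1 of 24 arrays, in LKO CL316243, and was not tested.

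Markers of other cells moved beside these genes. Of 6 neutrophil markers, S100a8, S100a9 and Retnlg rose and Ly6g fell in LWT, and S100a8, S100a9, Retnlg and Cxcr2 rose in LKO. Their summed level, in multiples of the array's 75th percentile, ranged under vehicle from 1.94 to 5.16 in LWT and 2.04 to 3.21 in LKO, and under CL316243 from 2.01 to 13.6 in LWT and 3.47 to 47.5 in LKO. None of 7 Kupffer cell and macrophage markers was called in any of the 5 comparisons, with summed levels of 51.4 to 107.8, 56.6 to 97.1, 57.9 to 112.7 and 51.8 to 96.9 in the same order. Their part in the Ucp2 and Ucp3 results was not tested. Of 7 hepatocyte markers, 0 were called in LWT and 1, Apoa1, fell in LKO.

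Of the carriers of ATP-magnesium and phosphate, which adjust the adenine nucleotide pool of the matrix, 3 of 4 were tested. Slc25a25 was at 3.16 (2.49 to 3.59) and 4.06 (3.90 to 4.61) in LWT, vehicle first, and at 2.96 (2.57 to 3.32) and 3.63 (2.87 to 4.69) in LKO. Treated and vehicle mice were apart in LWT and overlapped in LKO. The rise was 2.10-fold in LWT (log2 1.07 ± 0.26, adjusted p = 0.00231) and 1.72-fold in LKO (0.79 ± 0.26, adjusted p = 0.0187), with an interaction of -0.28 (95% interval -1.04 to 0.48, adjusted p = 0.757). The LKO call was lost without LKO CL316243 replicate 2 (0.64) or 3 (0.59, adjusted p = 0.0577), and with the mean of its 4 probes (0.63). Within slides 1, 2 and 3 the LKO change was 1.72, 0.57 and 0.06. Its paralog Slc25a23 fell by 0.34 in LWT and 0.63 in LKO. The 3 probes of Slc25a23 ranged from -2.10 to -0.34 in LWT, with a mean of -1.08 (-0.97 in LKO), and the LWT call of the brightest was lost without LWT vehicle replicate 6 (-0.27) or LWT CL316243 replicate 3 (-0.25). Slc25a24 was not called, at 0.25 and 0.30. Slc25a36, which holds the full cAMP response element as Slc25a25 does, changed by 0.16 in LWT and 0.07 in LKO, neither called.

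Of the cofactor, coenzyme A and nucleotide carriers, all 9 were tested. In LWT 4 rose and 1 fell, beside 18.9% and 19.4% of all genes. In LKO 3 rose and 2 fell, beside 20.9% and 19.4%. Slc25a51, the NAD carrier of the matrix, was at 4.16 (3.55 to 5.15) and 5.79 (4.26 to 6.67) in LWT and at 4.17 (3.95 to 4.45) and 5.55 (4.08 to 6.57) in LKO. Its groups overlapped in both genotypes. It rose 2.40-fold in LWT (log2 1.26 ± 0.40, adjusted p = 0.0146) and 2.49-fold in LKO (1.31 ± 0.40, adjusted p = 0.011). Within slide 1 the Slc25a51 change in LWT was -0.09, against 1.97 and 1.91 within slides 2 and 3. Slc25a32, a carrier of folate and FAD, rose in LWT (95% interval 0.76 to 1.24) and by 0.61 in LKO. A dimmer Slc25a32 probe was not called in LWT (0.39, adjusted p = 0.136 in the fit of all probes). In LKO that probe rose by 0.57 (adjusted p = 0.0285). Over the alternatives the LWT change of Slc25a32 was 0.70 to 1.04 and stayed called. Slc25a33, a pyrimidine nucleotide carrier, rose by 0.74 and 0.72. Slc25a17, which acts in peroxisomes, fell by 0.67 and 0.75. Slc25a16 fell by 0.32 in LKO. Slc25a53 passed the filter through LWT vehicle alone, being well above background on 5, 2, 1 and 1 of 6 arrays in LWT vehicle, LWT CL316243, LKO vehicle and LKO CL316243, and was not called.

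**Figure D3:**
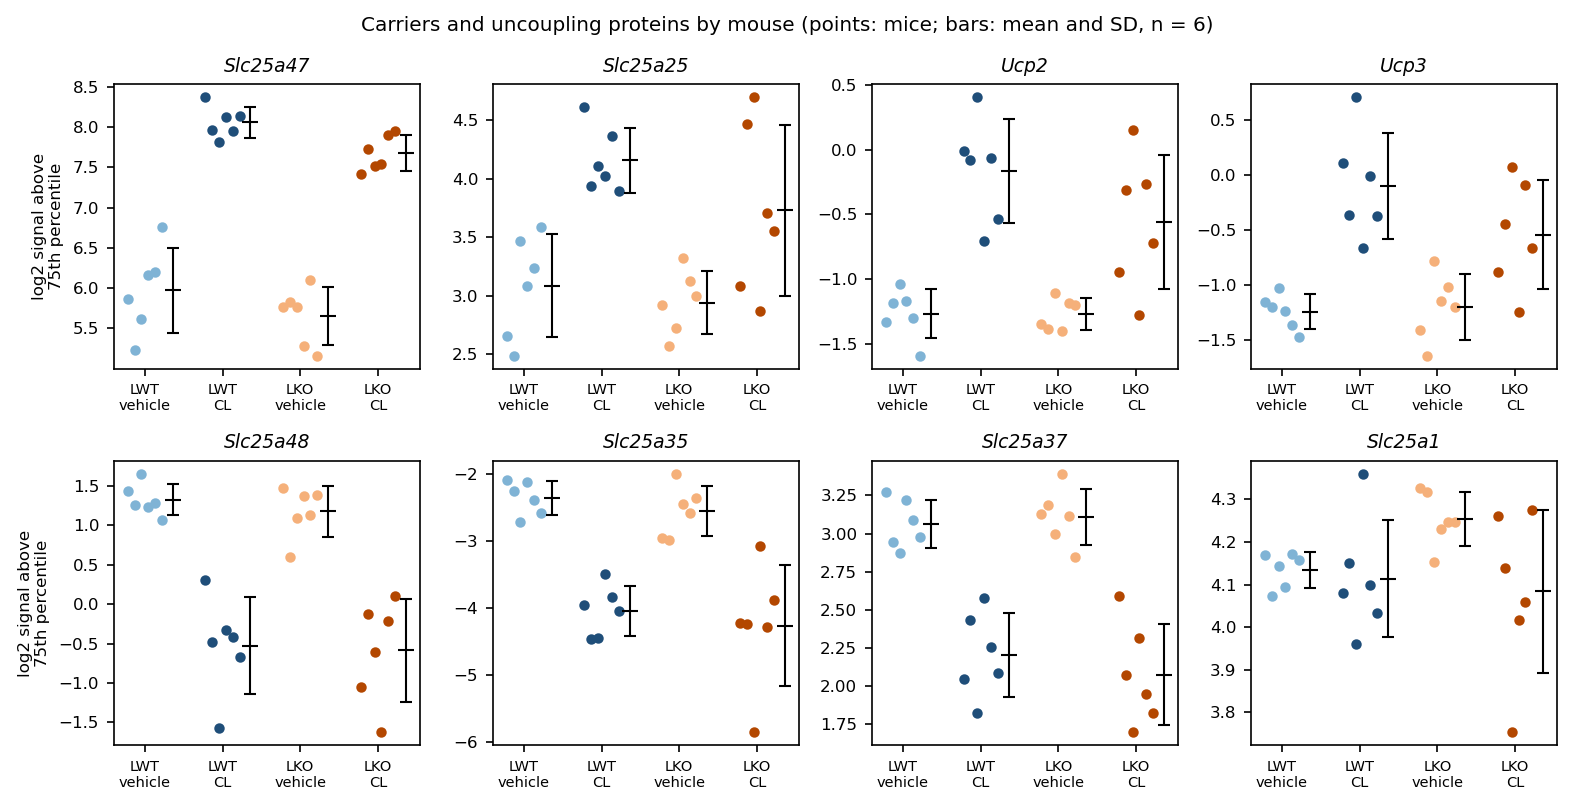
Log2 signal minus that of the array's 75th percentile (y axis, a separate scale for each gene) in every mouse of the 4 groups (x axis) for 8 members; points are mice, bars the mean and SD of 6. Slc25a47 is higher with CL316243 in every mouse (7.42 to 8.37 against 5.16 to 6.76), Slc25a48 and Slc25a35 are lower, Ucp2, Ucp3 and Slc25a25 spread widely among treated LKO mice, and the groups of Slc25a1 overlap.

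The carriers of less settled substrate held the members with the largest falls. Slc25a48 was at 1.27 (1.07 to 1.65) and -0.45 (-1.57 to 0.31) in LWT, vehicle first, and at 1.26 (0.60 to 1.48) and -0.41 (-1.62 to 0.11) in LKO. No treated mouse reached the vehicle mice of its genotype. It fell 3.61-fold in LWT (log2 -1.85 ± 0.27, adjusted p = 1.26e-05) and 3.39-fold in LKO (-1.76 ± 0.27, adjusted p = 2.58e-05). Slc25a35 fell by 1.68 and 1.71, likewise without overlap; it was dim, well above background on 21 of 24 arrays, and with normexp background correction the changes were -0.64 and -0.54, still called. Slc25a45 fell by 0.99 and 0.73 (0.49 in LKO without LKO CL316243 replicate 3, still called). Slc25a43 and Slc25a46, the latter an outer membrane protein of mitochondrial shape, rose by 0.31 and 0.29 in LWT and were not called in LKO (-0.14 and -0.01).

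Of the 4 iron and glutathione carriers, 1 rose and 3 fell in LWT, beside 18.9% and 19.4% of all genes. In LKO 2 of them fell, beside 19.4% of all genes. Slc25a37, the iron importer mitoferrin 1, was at 3.03 (2.87 to 3.27) and 2.17 (1.83 to 2.58) in LWT and at 3.12 (2.85 to 3.39) and 2.01 (1.70 to 2.59) in LKO. Treated and vehicle mice were apart in both genotypes. It fell by 0.86 ± 0.14 in LWT (adjusted p = 4.84e-05) and by 1.03 ± 0.14 in LKO (adjusted p = 6.98e-06). Its 4 probes did not go together, however: the other 3 gave -0.13, 0.58 and 0.02 in LWT and -0.94, 0.50 and -0.02 in LKO, and with the mean of all 4 the LWT change was -0.10 and not called (-0.38 and called in LKO). The probe at 0.58 lies at chr14:70080666-70080725 (mm9), outside the stretch chr14:69860020-69902856 that holds the rest. Slc25a28, mitoferrin 2, fell by 0.29 in LWT. Slc25a40 fell by 0.70 and 0.65 (0.31 and 0.31 with normexp), and Slc25a39, the glutathione carrier, rose by 0.19 in LWT.

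**Figure D4:**
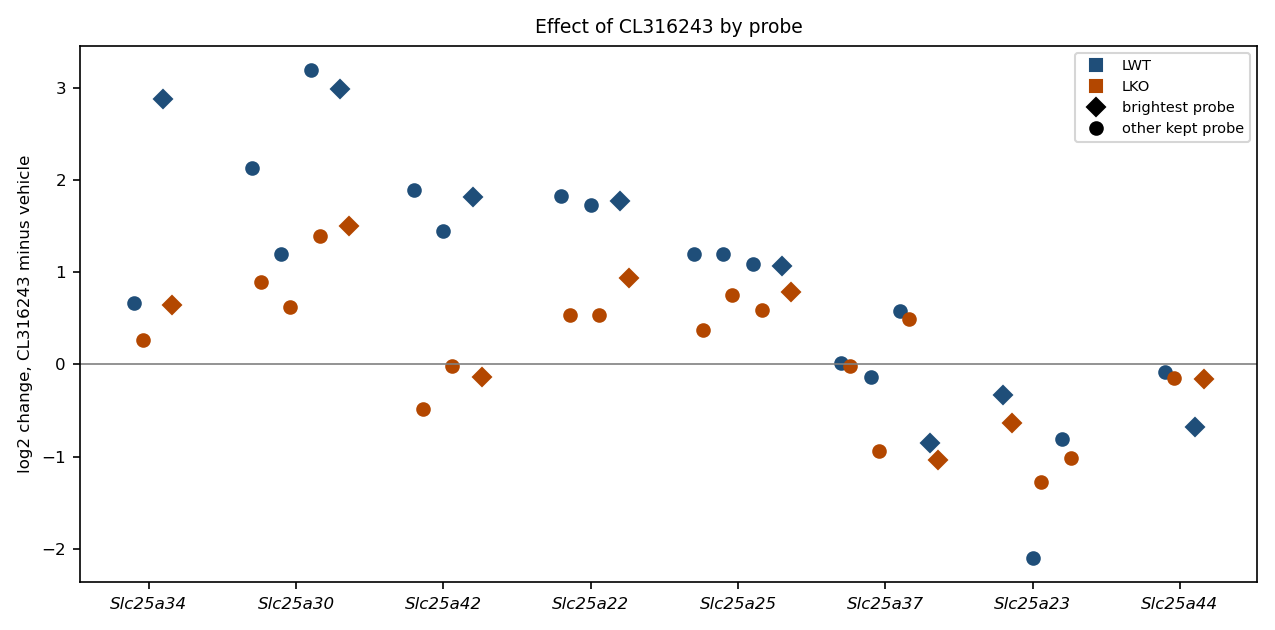
Log2 change with CL316243 against vehicle (y axis) for each kept probe of 8 members (x axis), in LWT (blue) and LKO (orange); diamonds are the brightest probe, which stands for the gene, circles the others, ordered along the transcript. Probes of Slc25a42, Slc25a22 and Slc25a25 all lie above zero in LWT (1.07 to 1.90), the 2 lower probes of Slc25a30 were not well above background on any LKO array, those of Slc25a37 fall on both sides of zero (-0.86 to 0.58) and the second probe of Slc25a34 is at 0.66 against 2.89.

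The carriers of citrate, dicarboxylates and oxoacids were all tested. Of these, 1 of 4 fell in LWT and 3 of 4 fell in LKO, beside 19.4% of all genes in either genotype. Slc25a11, the oxoglutarate and malate exchanger of the malate-aspartate shuttle, was at 5.07 (4.95 to 5.20) and 4.31 (3.94 to 4.67) in LWT and at 5.07 (5.05 to 5.28) and 4.25 (4.01 to 4.51) in LKO. Treated mice were below all vehicle mice. It fell by 0.78 ± 0.11 in LWT (adjusted p = 6.19e-06) and by 0.86 ± 0.11 in LKO (adjusted p = 2.53e-06). Slc25a21, which carries oxoadipate, fell by 0.68 in LKO (adjusted p = 0.00383), against -0.32 in LWT. Its second probe fell in both genotypes, by 0.55 in LWT (adjusted p = 0.0189) and 1.35 in LKO, and the mean of both in LKO was -1.01.

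Slc25a1, which exports citrate for lipid synthesis, was not called in any of the 5 comparisons by its brightest probe. Its level was 4.15 (4.07 to 4.17) and 4.09 (3.96 to 4.36) in LWT and 4.25 (4.15 to 4.33) and 4.10 (3.75 to 4.27) in LKO. Groups overlapped in each of the 4 pairs compared. Its change was -0.02 in LWT (95% interval -0.18 to 0.14, adjusted p = 0.860) and -0.17 in LKO (-0.33 to -0.01, adjusted p = 0.0803). The LKO change passed the test with the mean of its kept probes (-0.35), with normexp (-0.20), with the authors' deposited series table (-0.20), and without LKO CL316243 replicate 1 or 6 (-0.21 each). Its second probe, well above background on all 24 arrays, fell by 0.53 in LKO (adjusted p = 0.000178 in the fit of all probes), with a called interaction of -0.48 (adjusted p = 0.0409).

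Of the aspartate and glutamate carriers besides Slc25a22, Slc25a13, citrin of the malate-aspartate shuttle, fell by 0.52 in LKO and changed by -0.15 in LWT. Slc25a12 was not called by its brightest probe. Another Slc25a12 probe, well above background on every array, fell by 0.53 in LWT and 0.69 in LKO (adjusted p = 0.00209 and 0.000171 in the fit of all probes). A dimmer one fell by 0.51 in LKO (adjusted p = 0.00537) and was not called in LWT (-0.07). Slc25a15, which brings ornithine into the urea cycle, rose by 0.79 in LKO (adjusted p = 0.0224) and was not called in LWT (0.17). The LKO call was lost without LKO CL316243 replicate 2 (0.69) or 3 (0.59). Slc25a38, a glycine carrier for haem synthesis, fell by 0.54 and 0.44, and Slc25a44, a branched-chain amino acid carrier, by 0.67 in LWT, where its second probe gave -0.08 and the mean of both -0.38. Slc25a2, Slc25a26, Slc25a29, Slc25a3 and Slc25a4 were not called for the agonist in either genotype by their brightest probes. A dimmer Slc25a26 probe fell by 0.37 in LKO (adjusted p = 0.00163 in the fit of all probes) and was not called in LWT (-0.20). The 5 members that were not tested, Slc25a18, Slc25a31, Slc25a41, Slc25a54 and Ucp1, were well above background on at most 3 of 6 arrays in any group.

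Between genotypes, 1 of 44 members differed under vehicle, lower in LKO (2.27%, beside 1.18% of all genes, or 0.778% lower), with no overlap of the groups (beside 1.8% of all genes). Under CL316243, 15 differed (34.1%, beside 15.9%), 10 lower and 5 higher in LKO, beside 8.17% and 7.74% of all genes. Both comparisons share mice with the treatment comparisons and with the interaction. Under CL316243, Slc25a34 was 26.5-fold lower in LKO (log2 -4.73 ± 0.27, adjusted p = 1.30e-11; -2.63 with the mean of its 2 probes and -0.54 for the second alone), Slc25a30 4.49-fold, Slc25a42 4.33-fold and Slc25a22 2.48-fold, with no overlap of the mice. Slc25a10 (-0.62), Slc25a13 (-0.58), Slc25a32 (-0.46), Slc25a46 (-0.30), Slc25a4 (-0.21) and Slc25a5 (-0.19) were lower by less. Slc25a14 (0.45), Slc25a44 (0.40), Slc25a28 (0.39) and Slc25a38 (0.35) were among those higher. Groups were apart for 6 members under CL316243, which is 13.6% beside 6.57% of all genes. Slc25a1, Slc25a25, Slc25a47 and Ucp2 were not called under either treatment. Under CL316243, LKO minus LWT was -0.03 for Slc25a1, -0.43 for Slc25a25, -0.38 for Slc25a47 and -0.40 for Ucp2.

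Some of these smaller differences rested on single mice or probes. Slc25a4 was lost without any of 7 mice (LWT CL316243 replicates 3, 5 and 6 and LKO CL316243 replicates 2, 3, 4 and 6; -0.21 to -0.18), and its second probe gave 0.02. Slc25a44 was lost without any of 10 mice (LWT vehicle replicate 4, LWT CL316243 replicates 1, 2, 3 and 5, and LKO CL316243 replicates 1, 2, 4, 5 and 6; 0.29 to 0.42), and it was -0.11 within slide 1 against 0.80 and 0.51 within slides 2 and 3. It was also lost with slide as a block and with the mean of its kept probes (0.17), and its second probe gave -0.05. Slc25a32 was lost with the mean of its 2 probes (-0.26), Slc25a28 and Slc25a46 when only the 2 groups compared were fitted, and Slc25a5 in that fit, with no filter and with the series table (-0.14). Beside Slc25a38 and Slc25a37, which serve haem synthesis, the erythroid marker Alas2, an enzyme of the same pathway, was higher in LKO by 0.41 under vehicle and 0.35 under CL316243, while the other erythroid marker tested, Slc4a1, was not called (0.19 and 0.08). Slc25a37 was not called between genotypes either (0.05 and -0.13). Its part in the result was not tested.

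**Figure D5:**
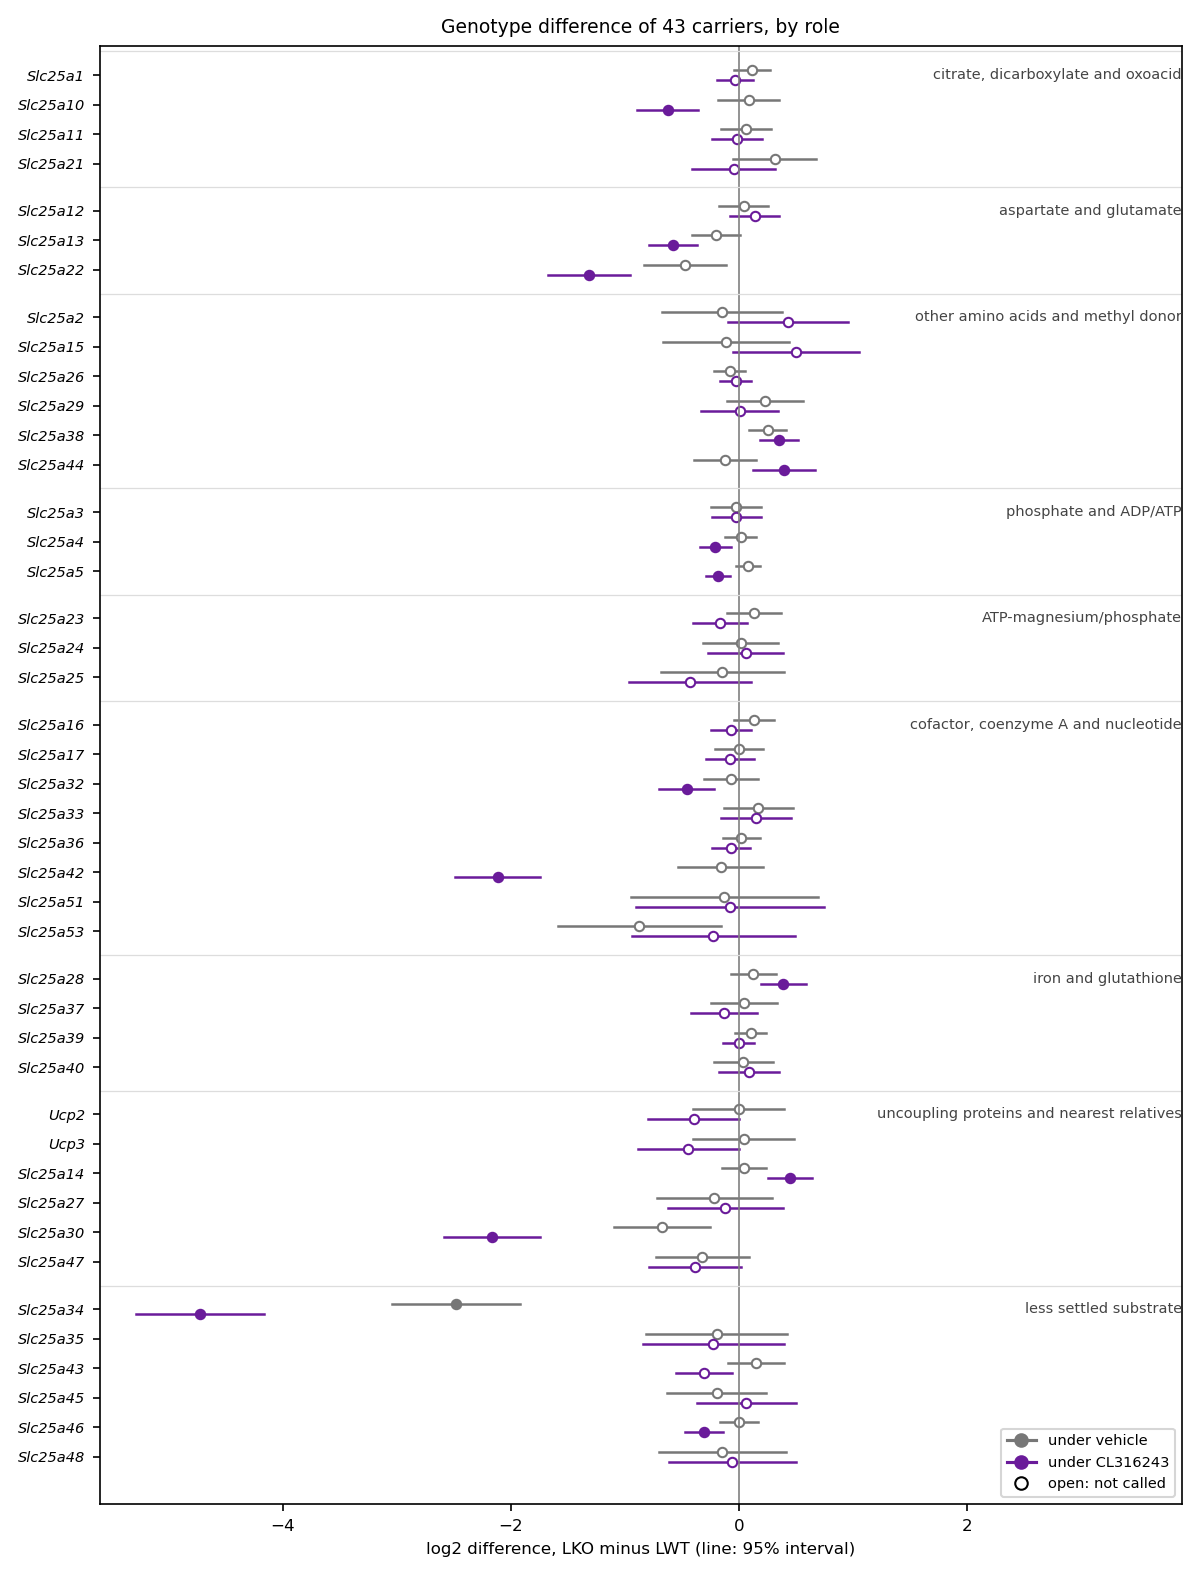
Log2 difference of LKO minus LWT (x axis) for 43 of the 44 members tested, grouped by role (y axis), under vehicle (grey) and CL316243 (purple); points are limma estimates, lines their 95% intervals, and open points did not pass the test. Under vehicle Slc25a34 at -2.48 is the one filled point, and under CL316243 Slc25a34 (-4.73), Slc25a30 (-2.17), Slc25a42 (-2.11) and Slc25a22 (-1.31) lie farthest to the left.

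For comparison, 27 other mitochondrial transport genes were tested, which hold the carrier Slc25a20, pyruvate carriers and sideroflexins as well as outer membrane and intermembrane space proteins. Of these, 6 rose and 8 fell in LWT, and 2 rose and 9 fell in LKO. For these genes and the enzymes below, the shares of all genes were 18.9% higher and 19.4% lower in LWT. In LKO they were 20.9% and 19.4%, and 3.24% had a lower effect in LKO by the interaction. The interaction was called for 4 of the 27, all lower in LKO, as for the members. Among them were Slc25a20, the carnitine and acylcarnitine carrier (-1.09), and Timm9 (-0.79) and Tomm70a (-0.71) of protein import. Of 12 enzymes that act on carrier substrates, 4 rose and 1 fell in LWT, 4 rose and 2 fell in LKO, and the interaction was called for Gpd2 of the glycerol phosphate shuttle (-1.65) and Got2 of the malate-aspartate shuttle (-0.32). Acly, which splits the citrate that Slc25a1 exports, was not called for the agonist in either genotype.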

How the data were processed

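Per the labels, total liver RNA of 24 mice was labelled with Cy3 from 200 ng each. The deposited scanner files hold spot intensities; per the file headers, they were written by Feature Extraction 10.10.1.1 (Agilent), whose background-subtracted processed intensity was used here. The deposited series table holds log2 values; they differed from quantile-normalized log2 median signals by a median of 0.00367 over 31367 probes, and served as an alternative.

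Spots flagged as outliers were removed and replicate spots averaged. The array's 75th percentile over gene spots was subtracted on the log2 scale. A probe was kept if it lay well above background on 4 or more arrays in any group of 6 (32037 probes), and the brightest stood for its gene. Means of the 4 groups were fitted with limma 3.58.1 (R 4.3.3), and p-values were adjusted by Benjamini-Hochberg over 21331 genes within each of 5 comparisons. The fit was tested on simulated data. The number of arrays limits the precision (median SE of a member's change 0.13, and 0.18 for the interaction).

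Members named with values were Slc25a1, Slc25a25, Slc25a47, Ucp2, close paralogs and, in each comparison, up to 10 called members in each direction by size; smaller called changes outside this rule (Slc25a33, Slc25a43, Slc25a46, Slc25a39, Slc25a14 and Slc25a28 in LWT; Slc25a5, Slc25a16, Slc25a38 and Slc25a13 in LKO) were added after their values were seen. Members and lists were chosen with earlier results of these data known. All 44 tested members have a probe in the series table. Replicate numbers were not treated as pairs, since not every same-numbered pair of mice deviated together. Probe positions are those of the array annotation (mm9); which exon or UTR a probe reads was not analysed here. The values of 1 tested member and of some other genes are not reported here.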

Additional observations from a re-analysis of the deposited data

Results flagged for a closer look

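Among 128 groups of 6 mice examined for the members, 6 held a mouse that stood apart by Dixon's criterion, where chance alone gives about 1 in 20 groups. Slc25a17 was at 3.41 in LKO vehicle replicate 4, against 3.71 to 3.87 in the other mice of the group. Slc25a42 was at 5.35 in LWT CL316243 replicate 3, against 5.91 to 6.22. Slc25a45 was at 0.30 in LKO CL316243 replicate 3, against 1.39 to 2.04. Slc25a10 was at 0.01 in LKO CL316243 replicate 6, against -0.62 to -0.38. Slc25a28 was at 1.55 in LWT vehicle replicate 2, against 1.72 to 1.80. Slc25a46 was at 2.67 in LKO vehicle replicate 4, against 2.90 to 3.01.

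The effect of CL316243 differed between genotypes, by the interaction in the limma fit, for Slc25a34 (-2.24), Slc25a42 (-1.95), Slc25a30 (-1.49), Slc25a22 (-0.84), Slc25a10 (-0.71) and Slc25a5 (-0.27).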

How the results depend on the processing

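The number of members called ranged over the alternatives from 19 to 32 in LWT (26 as reported), 20 to 28 in LKO (24), 3 to 9 for the interaction (6), 1 to 2 between genotypes under vehicle (1) and 6 to 15 under CL316243 (15). With no filter on dim probes the interaction was called for 3 members (664 of 37074 genes); Slc25a22, Slc25a10 and Slc25a5 were the members lost. Under vehicle 2 members were called with the mean of all kept probes and 2 with array weights, and under CL316243 6 were called when a 1.5-fold change was also required. Array weights raised the genes called for the interaction from 1153 to 2158 and under vehicle from 251 to 635. Leaving out 1 mouse gave 23 to 27, 22 to 26, 4 to 8, 1 to 1 and 13 to 15 members in the same order. Each single member's result was counted once per setting, as a pair. Over the alternatives 39 pairs lost their call, failures of the 1.5-fold requirement among them, and 3 gained one. With 1 mouse left out, 42 pairs lost and 3 gained a call. Of the 42, 16 were the Slc25a22 interaction, and 10 for Slc25a44 and 7 for Slc25a4 were genotype differences under CL316243. The remaining 1012 and 1779 pairs kept their call or stayed uncalled. Within slide 1, the change of Slc25a51 in LWT (-0.085) and the genotype difference of Slc25a44 under CL316243 (-0.11) reversed; the cause was not tested.

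With the replicate number as a block, 26, 25, 5, 1 and 15 members were called; Slc25a22 was lost for the interaction and Slc25a4 under CL316243, and Slc25a34 was gained in LKO and Slc25a43 under CL316243. The labels do not say that a number marks shared mice or days, and 9 of 36 same-numbered pairs correlated above 0.1 (range -0.18 to 0.42), short of every pair. Still, 10 of 24 mice matched best with a mouse of their own number, a hint from the data only. Signal over background limits what can be said of Slc25a53 and of the 5 members not tested.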
